A study of Mus musculus with 8 samples.

Results

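Acyl-CoA thioesterases, encoded in the mouse by the Acot genes, were measured in gastric epithelial cells of C57BL/6 mice, 1 group on a high fat diet (HFD) and 1 control group. The 10 genes Acot1, Acot2, Acot3, Acot4, Acot7, Acot8, Acot9, Acot11, Acot12 and Acot13 were taken by symbol, and all 10 were found among the 38920 rows of each table, 32891 of which carry a gene symbol. The family was chosen by values of these same libraries, with the HFD and control levels of its members in view, so the differences between HFD and control given for its members are a description and carry no test. There were 4 HFD libraries (22, 23, 26 and 27) and 4 control libraries (ND15.17.18, 16, 19 and 20; titled ND), each of total RNA from sorted stomach cells after removal of ribosomal RNA. The labels give no age, sex, diet composition or feeding time, and do not say whether a library is 1 mouse. The title of control ND15.17.18 joins 3 numbers, and no label says whether that library was pooled.

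Thioesterases split a fatty acyl-CoA into a free fatty acid and coenzyme A, the reverse of the activation carried out by acyl-CoA synthetases. The type I enzymes (Acot1 to Acot6) share an alpha/beta hydrolase fold and are known as targets of the lipid-sensing receptor PPAR alpha in liver, while the type II enzymes (Acot7 to Acot13) share a hotdog fold and have little sequence in common with type I. The members act in different places: Acot1 and Acot7 in the cytosol, Acot2 and Acot9 in mitochondria, and Acot3, Acot4 and Acot8 in peroxisomes.

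The type I genes form 1 cluster of 6 genes on chromosome 12, from 83987861 to 84109783 (mm10), all on the plus strand in the order Acot2, Acot1, Acot4, Acot3, Acot5 and Acot6. Acot2 spans 83987861 to 83993877 and Acot1 84009502 to 84017670, with 15624 bases between them. Over 1232 aligned coding bases Acot1 and Acot2 are 95.6% identical, against 86.4% for Acot1 and Acot3 and 78.3% for Acot1 and Acot4. This likeness bears on the values of the type I genes below, because a read from an identical stretch cannot be assigned to 1 of the genes. Of all 50-base stretches of the Acot1 transcript, 23.7% also occur in Acot2 and 33.6% occur in some other gene, while 24.5% of those of Acot2 occur in Acot1. The longest coding stretch that the pair shares runs over 273 bases, from coding base 887 to 1159 of Acot1:

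Acot1 and Acot2: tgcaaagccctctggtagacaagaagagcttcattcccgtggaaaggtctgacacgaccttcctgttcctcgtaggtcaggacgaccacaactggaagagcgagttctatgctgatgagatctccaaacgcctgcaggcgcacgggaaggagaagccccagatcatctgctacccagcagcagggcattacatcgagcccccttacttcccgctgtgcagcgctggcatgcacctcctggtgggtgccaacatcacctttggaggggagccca

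Reads from elsewhere can tell the pair apart. The 150 bases in which their coding sequences differ most are shown next, at coding bases 158 to 307 of Acot1 and 281 to 430 of Acot2, with the 14 differing bases in capitals:

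Acot1: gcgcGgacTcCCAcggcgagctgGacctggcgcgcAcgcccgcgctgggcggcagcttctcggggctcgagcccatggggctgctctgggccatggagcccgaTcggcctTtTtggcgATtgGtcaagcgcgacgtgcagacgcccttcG

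Acot2: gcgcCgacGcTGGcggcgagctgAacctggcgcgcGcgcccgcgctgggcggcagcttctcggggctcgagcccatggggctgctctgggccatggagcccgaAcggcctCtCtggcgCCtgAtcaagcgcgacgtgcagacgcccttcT

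The levels that follow are log2(value + 1) after median-ratio scaling, in which each library is divided by its median ratio to the row means, so a level is relative to the typical row of that library. Acot1 stood at 8.95, 8.91, 9.31 and 9.23 in HFD 22, 23, 26 and 27, and at 6.77, 7.68, 7.32 and 6.80 in control ND15.17.18, 16, 19 and 20. All 4 HFD libraries lay above all 4 control libraries, with a gap that exceeded the spread within either group. The mean was 9.10 ± 0.20 in HFD and 7.14 ± 0.44 among controls (SD, n = 4 each), a difference of 1.96 ± 0.23 (SE, log2), or 3.88-fold. In such bulk libraries fewer cells of a type and less RNA per cell cannot be told apart.

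Acot2 encodes the mitochondrial counterpart of Acot1. Its levels were 8.75, 8.53, 9.10 and 8.96 in HFD 22, 23, 26 and 27, and 7.24, 8.16, 7.61 and 7.51 in control ND15.17.18, 16, 19 and 20. Here too the groups did not overlap, and control 16 was the highest control library for both genes. The difference was 1.21 ± 0.22 (SE, log2), from 7.63 ± 0.39 to 8.84 ± 0.25 (SD, n = 4 each). After quantile normalization the Acot2 groups overlapped, with a difference of 1.11, while the Acot1 groups stayed apart at 1.87.

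**Figure D1:**
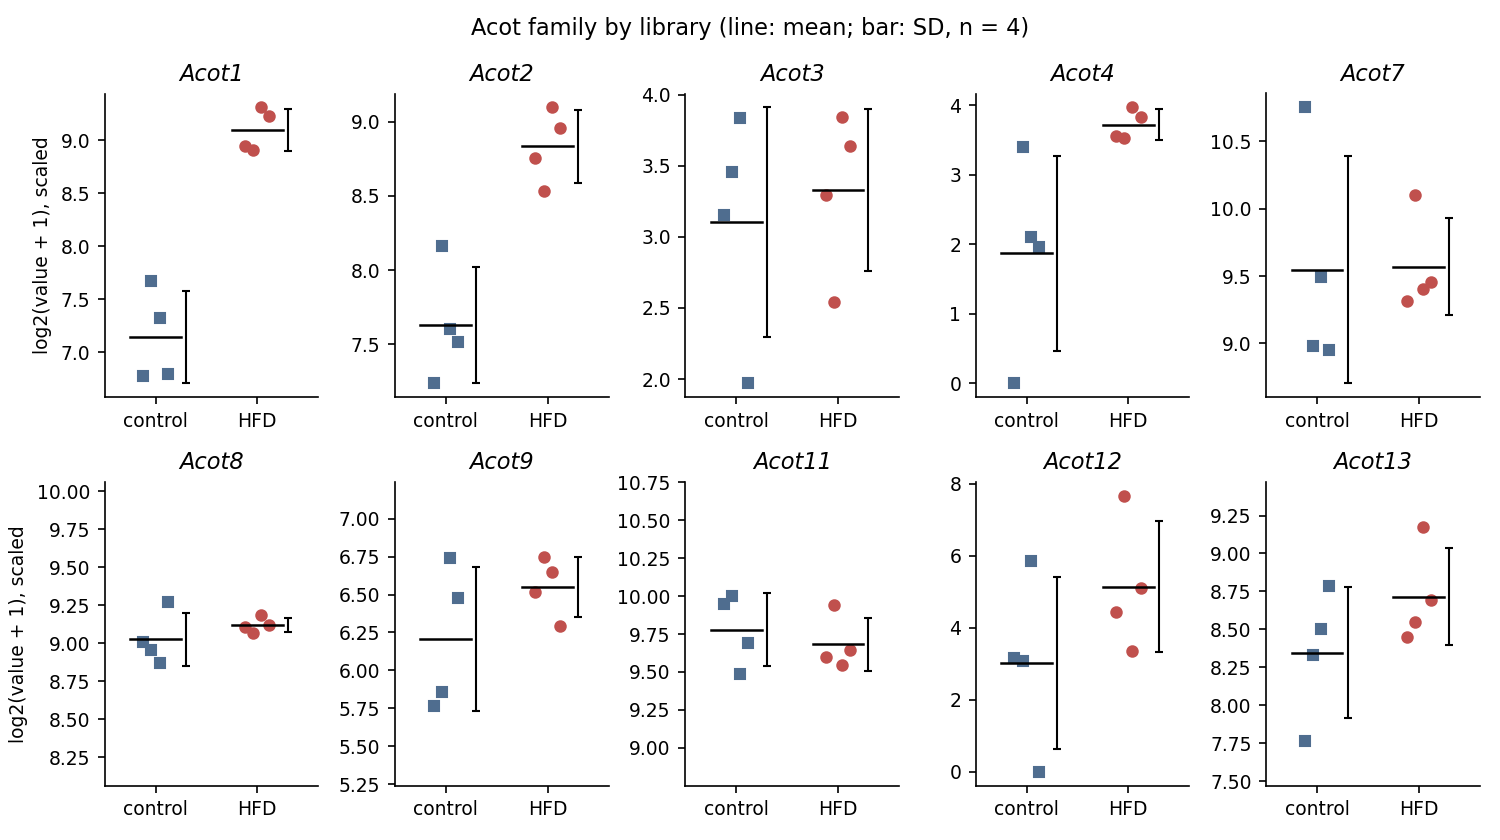
Scaled log2(value + 1) of each of the 10 members, with control libraries as squares and HFD libraries as circles, the mean as a line and the SD as a bar beside it (n = 4 each); each panel has its own axis. Acot1, Acot2 and, at low values, Acot4 separate the groups, while Acot7, Acot8 and Acot11 have nearly level means.

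The scaling cancels when 2 genes are compared within a library. On the deposited log2 scale Acot1 exceeded Acot2 by 0.19, 0.38, 0.22 and 0.27 in HFD 22, 23, 26 and 27. It lay below Acot2 in every control library, at -0.46, -0.49, -0.28 and -0.72 in control ND15.17.18, 16, 19 and 20. The group means, 0.26 ± 0.08 and -0.49 ± 0.18 (SD, n = 4 each; HFD first), thus lay 0.75 apart. A length that is the same in both groups cancels from this shift, but not from the sign. The transcripts with the longest coding sequence have 2272 bases for Acot1 and 2196 for Acot2. The exons of all transcripts cover 3919 and 2196 bases. The sign therefore describes reads, and which gene had more molecules in either group was not tested.

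Both genes were also higher relative to Acot8, a peroxisomal thioesterase of the other structural type. Acot1 minus Acot8 ran from -0.16 to 0.13 in HFD and from -2.48 to -1.28 in control. Acot2 minus Acot8 ran from -0.54 to -0.09 in HFD and from -1.78 to -0.79 in control. Neither range overlapped between the groups.

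As a share of the summed value of the 10 members, Acot1 took 14.7% ± 2.21 in HFD and 4.88% ± 1.81 among controls (SD, n = 4 each). Acot1 and Acot2 together took 27.5%, 20.4%, 30.3% and 29.6% in HFD 22, 23, 26 and 27, against 6.86%, 16.8%, 12.6% and 10.6% in control ND15.17.18, 16, 19 and 20. The lowest HFD share, in HFD 23, was above the highest control share, in control 16. Acot11 had the highest mean share in both groups, 21.8% ± 1.98 in HFD and 29.2% ± 4.36 among controls (SD, n = 4 each). These are shares of reads rather than of molecules, since a longer transcript gives more reads.

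**Figure D2:**
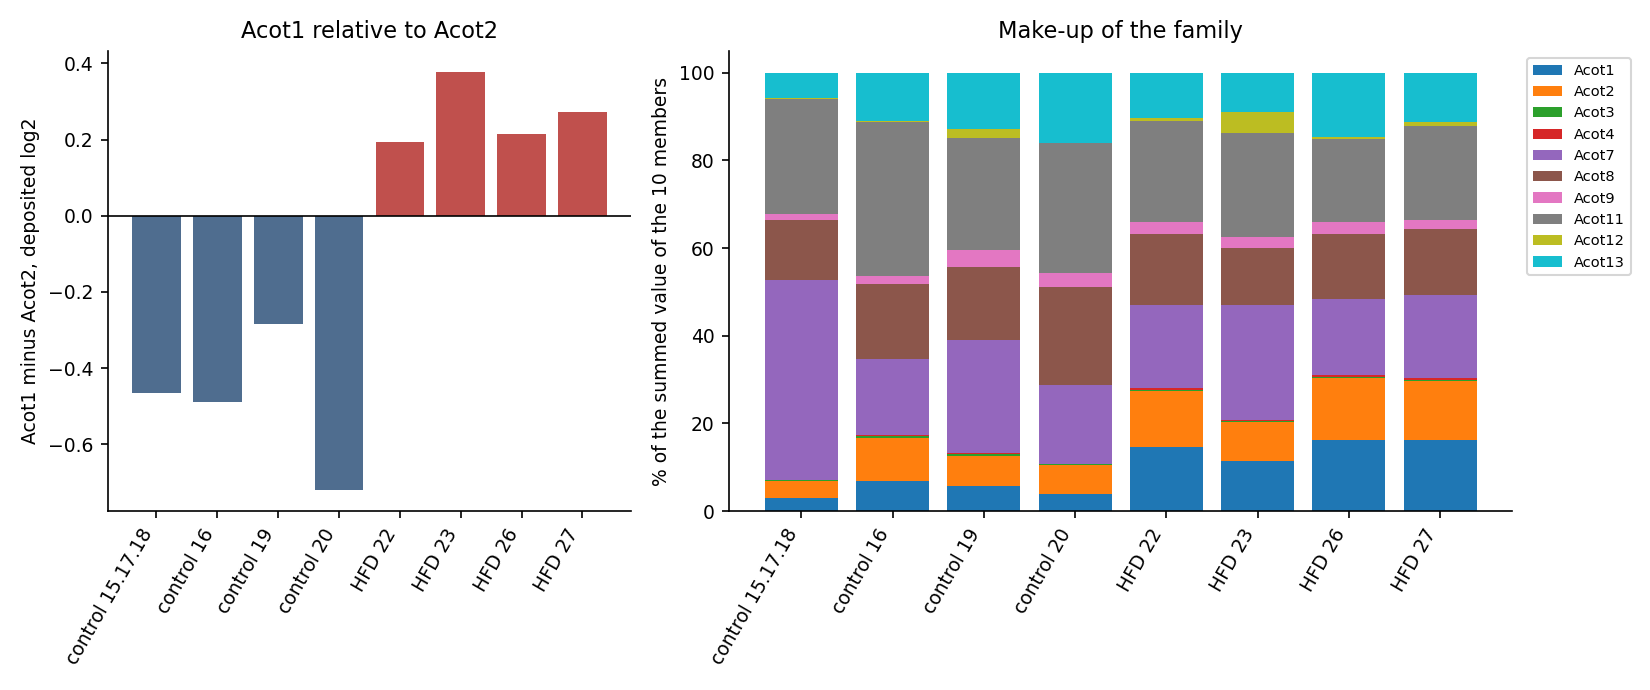
Left, Acot1 minus Acot2 on the deposited log2 scale in each library; right, the share of each member in the summed linear value of the 10 members, in percent. The Acot1 minus Acot2 bars are all above 0 in HFD, from 0.19 to 0.38, and all below 0 in control.

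The other type I members of the family were near the detection limit. The worth of about 1 read can be read from the spacing of the low values in each table and is called a step here. Acot3, a peroxisomal long-chain thioesterase (chromosome 12, 84052144 to 84060400), had 2 to 19.9 steps per library. Its level was 3.30, 2.54, 3.85 and 3.64 in HFD 22, 23, 26 and 27, and 3.15, 3.46, 3.84 and 1.97 in control ND15.17.18, 16, 19 and 20. The groups overlapped nearly fully, with a difference of 0.23 ± 0.72 (SE, log2) that became -0.16 after quantile normalization and -0.15 without control 20.

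Acot4 (chromosome 12, 84037254 to 84044723), a peroxisomal enzyme for succinyl-CoA and other dicarboxylic acyl-CoAs, had at most 21.9 steps. It stood at 3.56, 3.53, 3.97 and 3.84 in HFD 22, 23, 26 and 27, and at 3.40, 2.11 and 1.97 in control 16, 19 and 20. Control ND15.17.18 listed it at 0. All HFD libraries lay above all controls, but control 16 came close to HFD 23, and in control 19 the value was worth about 1 step. On the deposited scale and after quantile normalization the groups overlapped. The difference was 1.85 ± 0.83 (SE, log2), or 1.23 without control ND15.17.18 and 0.72 with a pseudocount of 10. Values below 1 are listed at 0, so the true level in that library could reach 2.74, which would make the difference 1.17. Of the 50-base stretches of Acot4, 11.2% also occur in the gene 4732463B04Rik.

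The cluster has a pair of further genes, Acot5 and Acot6, which encode peroxisomal enzymes for medium-chain and branched acyl-CoAs. Acot5 was at 2.81 ± 0.97 under HFD and 1.54 ± 1.27 in control, and Acot6 at 5.46 ± 0.28 and 4.80 ± 0.67 (SD, n = 4 each). The groups overlapped for both. All 6 genes of the cluster had a positive difference, from 0.23 for Acot3 to 1.96 for Acot1, though Acot3 turned negative after quantile normalization.

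**Figure D3:**
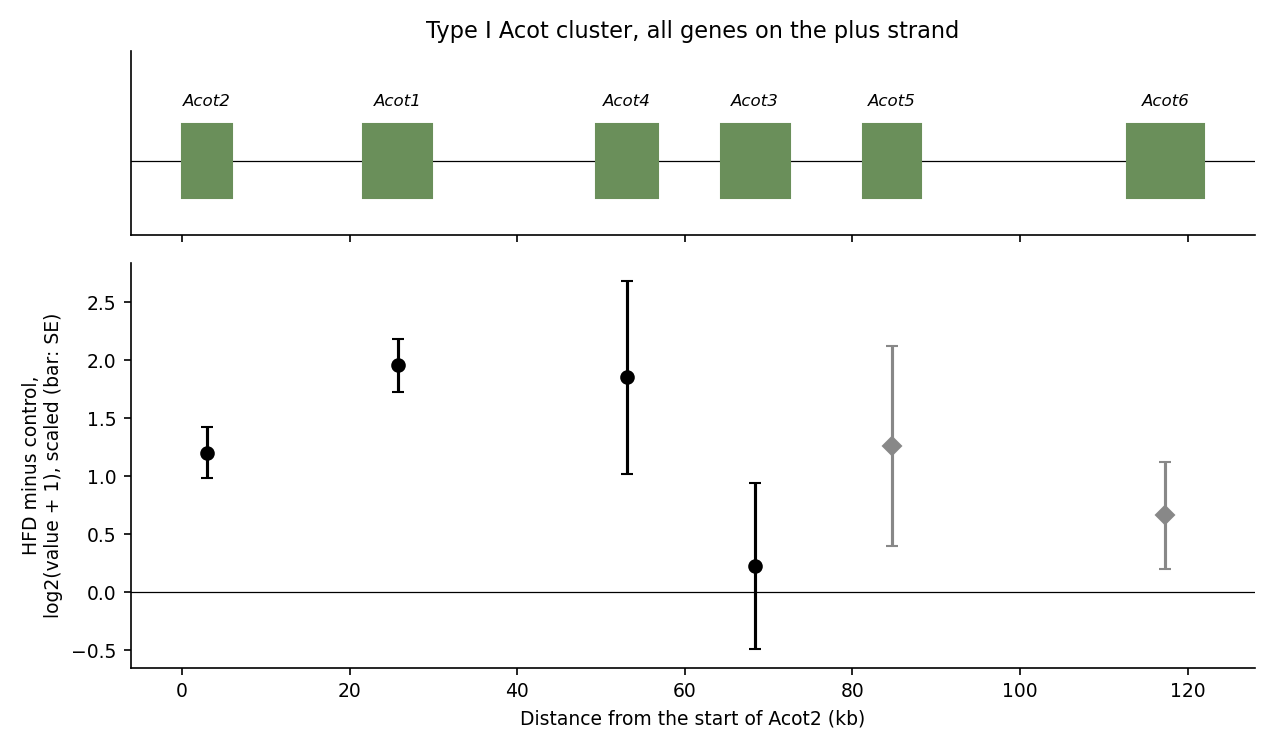
Top, the 6 type I genes drawn to scale by distance in kb from the start of Acot2; bottom, HFD minus control on the scaled log2(value + 1) scale with its SE, circles for the genes of the family list and diamonds for Acot5 and Acot6. Acot2 and Acot1 at the left have the narrowest errors, 0.22 and 0.23.

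Among the type II members that act in the cytosol or on membranes, Acot7, Acot11 and Acot13 were well detected. Acot7, an enzyme for long-chain acyl-CoAs best known from the brain (chromosome 4, 152178100 to 152271855), was at 9.31, 10.10, 9.41 and 9.45 in HFD 22, 23, 26 and 27 and at 10.75, 8.98, 9.49 and 8.95 in control ND15.17.18, 16, 19 and 20. Its highest HFD library was 23 and its highest control library ND15.17.18, and the means were 9.57 ± 0.36 and 9.55 ± 0.84 (SD, n = 4 each). The difference of 0.02 ± 0.39 (SE, log2) became 0.42 without control ND15.17.18 and -0.15 without HFD 23.

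Acot11, known as Them1 and for limiting energy use in brown fat (chromosome 4, 106744555 to 106805007), was at 9.60, 9.94, 9.55 and 9.64 in HFD 22, 23, 26 and 27 and lay between 9.48 and 9.95 in control ND15.17.18, 19 and 20, with control 16 slightly higher still. Among the 10 it alone had a negative difference on the median-ratio scale, at -0.10 ± 0.15 (SE, log2). Without 1 library it lay between -0.02 (without control 16) and -0.20 (without control 19), with values over 1.5 times apart from -0.10 also without HFD 23, HFD 26 and control ND15.17.18. It was positive on the deposited scale, at 0.76, beside a median of 0.90 over all rows. In its transcript 24.4% of the 50-base stretches are shared with the overlapping gene Fam151a. Acot13, known as Them2 and as a partner of phosphatidylcholine transfer protein (chromosome 13, 24817955 to 24831489), ran from 8.45 to 9.17 in HFD and from 7.77 to 8.79 in control. The Acot13 groups overlapped, and its difference of 0.37 ± 0.24 (SE, log2) became 0.18 without control ND15.17.18 and 0.22 without HFD 26.

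Acot12, a cytosolic acetyl-CoA hydrolase best known from liver (chromosome 13, 91741326 to 91786148), was the most uneven member. It stood at 4.43, 7.66, 3.37 and 5.11 in HFD 22, 23, 26 and 27, and at 3.15, 3.08 and 5.85 in control ND15.17.18, 16 and 19, while control 20 listed it at 0. HFD 23 alone held 209 steps, against 13.9 to 39.8 in the other HFD libraries and at most 17 in control. The difference of 2.12 ± 1.29 (SE, log2) was the largest of the 10 in size, with the widest error, and the groups overlapped. It became 1.28 without HFD 23, 1.12 without control 20 and 0.88 without HFD 23 and 27 together.

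The peroxisomal and mitochondrial type II members had small differences. Acot8 (chromosome 2, 164792768 to 164820219) was the steadiest, at 9.11, 9.07, 9.19 and 9.12 in HFD 22, 23, 26 and 27 and 9.01, 8.95, 8.87 and 9.27 in control ND15.17.18, 16, 19 and 20. Its difference was 0.09 ± 0.13 (SE, log2), with control 20 above every HFD library. It became 0.04 without control 19 and 0.18 without control 20. Of its 50-base stretches 17.7% are shared with the overlapping gene Snx21. Acot9, a mitochondrial enzyme (chromosome X, 155262443 to 155297654), ran from 6.29 to 6.75 in HFD and from 5.76 to 6.74 in control, with a difference of 0.34 ± 0.31 (SE, log2) that became 0.19 without control ND15.17.18 and 0.52 without control 19.

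Across the 10 members, 9 differences were positive on the median-ratio scale. All 10 passed the filter on low values. The median over the 10 was 0.36, beside 0.12 over the 27401 rows tested. On the deposited scale, where each library has the same total, all 10 were positive with a median of 1.19, beside 0.90 over all rows, and after quantile normalization 7 were positive with a median of 0.25, beside 0.03. In 3 of the 10, Acot1, Acot2 and Acot4, all HFD libraries lay above all controls, and 4.72% of all tested rows did so. On the deposited scale those were Acot1, Acot2 and Acot9, beside 7.82% of rows, and after quantile normalization Acot1 alone, beside 2.6% of rows. The Acot9 groups barely separated on the deposited log2 scale, with HFD 27 at 6.464 and control 20 at 6.463. By limma with Benjamini-Hochberg adjustment over all rows, 0 of the 10 members were called under any of the 3 scalings. The share of all rows called was 0.0109% after median-ratio scaling, 0.0584% on the deposited scale and 0.0109% after quantile normalization. On the main scale 2 members had an unadjusted p under 0.05, beside 10.5% of rows. Nothing is read from these counts, because the same contrast led to the choice of the family.

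**Figure D4:**
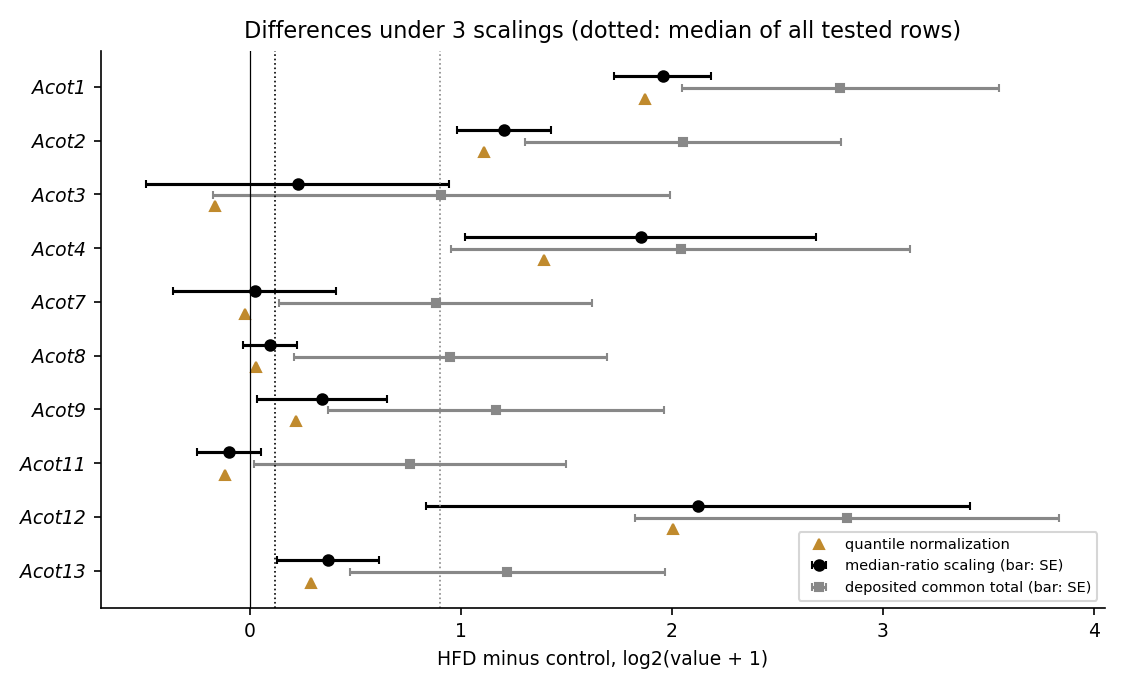
HFD minus control in log2(value + 1) for each member under 3 scalings: circles after median-ratio scaling and squares on the deposited scale, both with SE bars, and triangles after quantile normalization; dotted lines give the median of all tested rows, 0.12 and 0.90. The points of Acot1, Acot2, Acot4 and Acot12 lie right of both dotted lines under each scaling.

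Levels can be compared between genes only per length, for which each scaled value was divided by the length in kb of the transcript with the longest coding sequence. On the log2 scale per kb, Acot7, Acot8 and Acot13 were highest in control, at 8.96 ± 0.84, 8.82 ± 0.17 and 8.82 ± 0.43 (SD, n = 4 each), and their ranges overlapped. Acot11 followed at 8.23 ± 0.24, then Acot2 at 6.50 ± 0.39, Acot1 at 5.97 ± 0.43 and Acot9 at 5.42 ± 0.47 (SD, n = 4 each). In HFD, Acot1 stood at 7.92 ± 0.20 and Acot2 at 7.70 ± 0.25 per kb, next below Acot11 at 8.13 ± 0.18 (SD, n = 4 each). The range of Acot1 overlapped with both, while Acot2 and Acot11 did not overlap. Acot12, Acot3 and Acot4 came last in both groups, at 3.66, 1.88 and 1.57 per kb in HFD.

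The promoters of Acot1 and Acot2, the better detected of the 3 members without overlap after median-ratio scaling, are shown. They are taken from RefSeq on GRCm38.p6, the assembly of mm10, as 250 bases before and 50 after the start site, on the plus strand, at chr12:84009252-84009551 and chr12:83987611-83987910. Capitals mark the closest match, on either strand, to a direct repeat of AGGTCA with any 1 base N between the copies, the kind of element that PPAR with its partner RXR is known to bind:

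Acot1: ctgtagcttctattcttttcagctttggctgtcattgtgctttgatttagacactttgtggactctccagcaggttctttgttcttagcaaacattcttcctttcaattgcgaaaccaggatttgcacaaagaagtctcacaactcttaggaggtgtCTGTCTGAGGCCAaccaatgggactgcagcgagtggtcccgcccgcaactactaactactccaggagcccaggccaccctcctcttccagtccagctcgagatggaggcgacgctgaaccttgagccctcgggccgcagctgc

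Acot2: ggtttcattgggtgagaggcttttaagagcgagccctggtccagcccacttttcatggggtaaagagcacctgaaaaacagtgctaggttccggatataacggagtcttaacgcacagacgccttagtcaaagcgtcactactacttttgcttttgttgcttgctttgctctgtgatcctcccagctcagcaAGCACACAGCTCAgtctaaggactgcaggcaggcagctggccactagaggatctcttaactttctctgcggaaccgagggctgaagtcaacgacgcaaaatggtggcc

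The Acot1 match has 4 mismatches and the Acot2 match 3. Of 32851 promoters in the table, 79.8% hold a match with at most 4 mismatches and 24.6% one with at most 3, so these windows are ordinary in that respect. Promoters were listed for 9 of the 10 members. The closest matches among them were TGACCTCTCACCT in Acot12, with 1 mismatch (0.554% of all promoters have at most 1), and TGACCTTTGGCCG in Acot4, with 2 mismatches (3.86% have at most 2). Both are on the opposite strand. A match of letters is a description and not a binding site.

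Other genes of acyl-CoA metabolism were taken from 5 lists. In the list of PPAR target genes 0 of 32 tested genes were called, with 5 higher and 1 lower at an unadjusted p under 0.05 (10.5% of all rows in either direction) and a median of 0.16. Over all rows 0.00365% were called higher and 0.0073% lower. Fabp1, the liver fatty acid binding protein, differed by 1.77 ± 0.48, Angptl4, a secreted inhibitor of lipoprotein lipase, by 1.56 ± 0.55, and Ech1, a dienoyl-CoA isomerase, by 0.42 ± 0.15 (SE, log2; limma adjusted p = 0.26, 0.37 and 0.37). Ucp2, a mitochondrial carrier, differed by -0.35 ± 0.11 (SE, log2; limma adjusted p = 0.32), but by 0.51 on the deposited scale. The deposited value of Ucp2 lay below the median over all rows on that scale, 0.90. All HFD libraries lay above all controls for Fabp1 under each of the 3 scalings.

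Of the receptors and their partners, 0 of 15 tested genes were called, with 0 higher and 4 lower at an unadjusted p under 0.05, beside 10.5% of all rows in either direction. The median was -0.25 on the median-ratio scale, beside 0.12 over all rows. On the deposited scale it was 0.61, beside 0.90 over all rows. The 4 were the lipid sensor Ppard at -0.52 ± 0.12, the coactivator Ppargc1b at -0.57 ± 0.15, and the corepressors Ncor1 at -0.40 ± 0.14 and Nrip1 at -0.32 ± 0.13 (SE, log2; limma adjusted p = 0.22, 0.25, 0.37 and 0.42). In each of them all HFD libraries lay below all controls, as in 3.12% of all rows. On the deposited scale the groups overlapped and all 4 differences were positive, from 0.29 to 0.54, but below the 0.90 of all rows.

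The acyl-CoA synthetases catalyse the opposite reaction to the thioesterases. Of 23 tested, 0 were called, with 1 higher and 0 lower at an unadjusted p under 0.05 (all rows 10.5%), and the median of 0.14 was near that of all rows. Slc27a2, a synthetase for very long chains, differed by 0.72 ± 0.30, Acsl1, a main long-chain enzyme, by 0.26 ± 0.14, Acsf3, the malonyl-CoA synthetase, by 0.27 ± 0.14, and Acsl3, a synthetase of lipid droplets, by -0.33 ± 0.16 (SE, log2; limma adjusted p = 0.45, 0.53, 0.53 and 0.50). In the list of coenzyme A supply and acyl-CoA binding, 0 of 19 tested genes were called, with 4 higher and 2 lower at an unadjusted p under 0.05, beside the same 10.5% of all rows, and a median of 0.01. Dbi, the acyl-CoA binding protein, differed by 0.85 ± 0.22, and Coasy, which makes coenzyme A, by 0.36 ± 0.12, while Acbd3 and Acbd4 were at -0.37 ± 0.12 and -0.35 ± 0.13 (SE, log2; limma adjusted p = 0.25, 0.36, 0.33 and 0.40). Acsl3, Acbd3 and Acbd4 turned positive on the deposited scale, at 0.53, 0.49 and 0.51, below the median of 0.90 over all rows there.

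Among 12 other thioesterases and related enzymes 0 were called, beside 0.0109% of all rows. An unadjusted p under 0.05 in limma was found for 0 of them, beside 10.5% of all rows. Them6 was at 8.31 ± 0.09 in HFD and 8.01 ± 0.09 among controls (SD, n = 4 each), a difference of 0.31 ± 0.14 (SE, log2; limma adjusted p = 0.48), with no overlap, though the groups overlapped under the other scalings. On the median-ratio scale 4.72% of all rows had all HFD libraries above all controls, as Them6 did. Ppt2, a lysosomal thioesterase, was at 9.14 ± 0.12 in HFD and 8.96 ± 0.10 among controls (SD, n = 4 each). Acot10, an intronless relative of Acot9, was at 8.04 ± 0.08 in HFD and 7.79 ± 0.21 among controls (SD, n = 4 each). The differences of Ppt1, Lypla1, Them4 and Lypla2 were 0.14, 0.23, -0.14 and -0.13, all with overlapping groups. The last pair turned positive on the deposited scale, at 0.70 and 0.73, below the median of 0.90 over all rows there. Olah, detected in 6 libraries, differed by 0.13 ± 0.89 (SE, log2).

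By a rule that compares each gene's profile over the 8 libraries after centring on its own mean, Spp1, Try10, Gdf9 and Rmi2 were among the 5 closest to Acot1 of 15666 rows with a symbol and a mean level of at least 5, the members themselves left out. The measure is the root-mean-square difference in log2 units, which was 0.22 for Spp1, 0.26 for Try10, 0.35 for Gdf9 and 0.40 for Rmi2, beside 0.39 for the member Acot2. Spp1 encodes osteopontin and Try10 a trypsin.

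**Figure D5:**
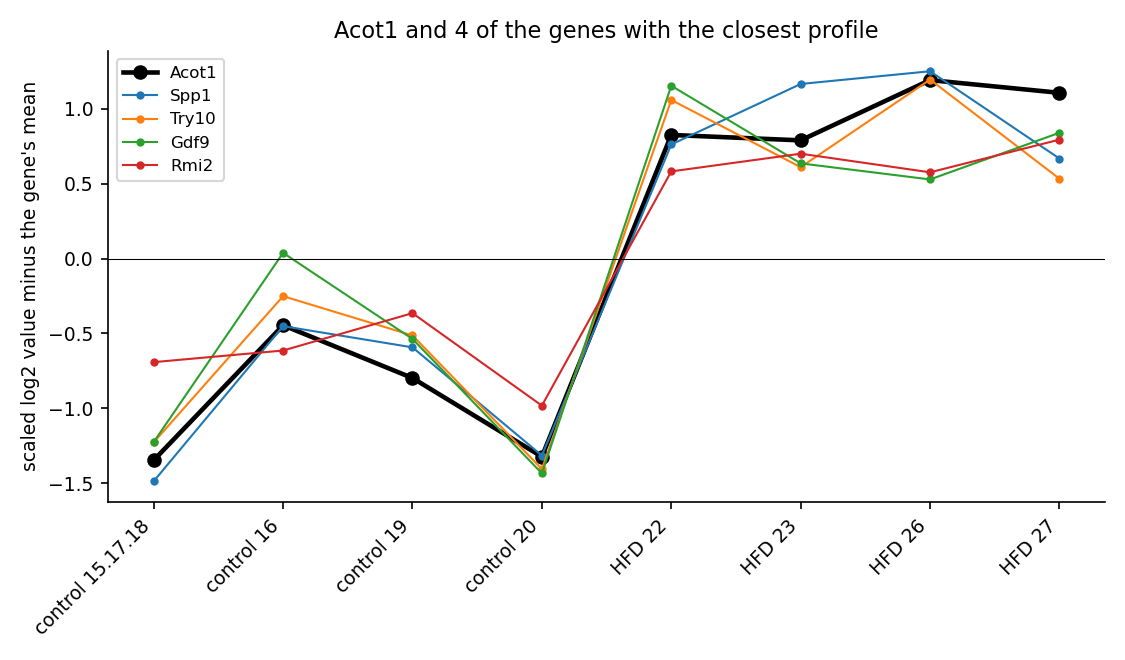
Scaled log2 value minus the gene's own mean over 8 libraries, for Acot1 (thick line) and 4 of the 5 rows outside the family with the smallest root-mean-square difference to it; the lines join libraries only to guide the eye. All 5 genes drawn lie below their mean in control ND15.17.18, 19 and 20 and above it in every HFD library; in control 16 only Gdf9 lies above its mean.

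Markers of gastric glands were abundant in every library. Atp4a of the parietal cell proton pump was at 16.94 ± 0.32 in HFD and 17.12 ± 0.40 in control, Pgc of chief cells at 21.43 ± 0.19 and 20.76 ± 0.45, and Muc5ac of surface mucous cells at 15.92 ± 0.18 and 17.53 ± 0.80 (SD, n = 4 each; HFD first). The leukocyte gene Ptprc was at 6.76 ± 0.14 and 6.46 ± 1.09. Mean levels over 14 marker lists were compared by an exact two-sided permutation test over 70 divisions of the libraries, and 0 passed after adjustment over the lists. The surface and neck mucous list overlapped between the groups (15.66 to 16.05 in HFD, 15.79 to 16.40 in control). Of its 8 genes, Muc5ac alone had all HFD libraries below all controls, as in 3.12% of all rows. The chief cell list (all 9 of its genes detected in every library) ran from 12.34 to 13.02 in HFD and from 11.41 to 12.06 in control, and the forestomach squamous list (9 of 11 genes detected in every library) from 6.49 to 7.31 and from 4.01 to 6.31. The chief cell and forestomach squamous lists each had an exact permutation p of 0.0286, the smallest this design allows, and an adjusted value of 0.20. With 14 lists, a list that separates the groups fully cannot pass the threshold of 0.05 by itself. The count of 0 therefore does not show that the lists were level between the groups. On the deposited scale the smooth muscle and fibroblast list (8.44 to 9.05 in HFD, 4.83 to 7.92 in control) and the pancreatic acinar list (7.32 to 7.80 and 4.25 to 7.19) also separated the groups, and all 4 lists had an exact permutation p of 0.0286 with an adjusted value of 0.10. On that scale these 4 lists separate the groups as Acot1 and Acot2 do, and the median difference of all tested rows there was 0.90. After median-ratio scaling the smooth muscle and fibroblast list overlapped (8.24 to 8.88 in HFD, 6.35 to 8.48 in control). So did the pancreatic acinar list (7.14 to 7.64 and 5.84 to 7.72). The part of the 4 lists in the Acot1 and Acot2 differences was not tested.

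By single genes on the median-ratio scale, all HFD libraries lay above all controls for 6 of 13 smooth muscle and fibroblast genes, 4 of 14 pancreatic acinar genes, 3 of 9 chief cell genes and 0 of 11 forestomach genes, beside 4.72% of all rows. Of the remaining lists, intestinal epithelium had 2 of 11 such genes, endothelium 1 of 8 and leukocytes 1 of 13, and the others had 0. The smooth muscle genes were Acta2, Actg2, Myh11, Cnn1, Tagln and Des, named after their values were seen. The groups overlapped for the other genes of that list, among them the collagen genes Col1a1, Col1a2 and Col3a1. Acta2, smooth muscle actin, was at 10.10 ± 0.17 and 8.05 ± 0.97 (SD, n = 4 each; HFD first). In the chief cell list the 3 most abundant genes were Pgc and Chia1, whose groups overlapped, and Cblif, whose groups did not. Chia1, a gastric chitinase, was at 17.76 ± 0.78 and 17.06 ± 0.86, and Cblif, the intrinsic factor, at 15.02 ± 0.30 and 13.57 ± 0.72 (SD, n = 4 each; HFD first). In the forestomach list the 3 most abundant were the keratins Krt5 at 10.46 ± 0.63 and 8.33 ± 2.41, Krt14 at 9.44 ± 0.72 and 7.40 ± 2.49, and Krt13 at 9.16 ± 0.78 and 6.70 ± 2.14 (SD, n = 4 each; HFD first), all with overlapping groups. The hepatocyte list (7 of 10 genes detected in every library) ran from 4.66 to 6.09 in HFD and from 4.69 to 6.08 in control. The lowest value of this list was in HFD 23, the library with the highest Acot12 level. The intestinal epithelium list was highest in HFD 23, at 8.22, and so was the erythrocyte list, at 6.89. The part of these lists and of the hepatocyte list in the Acot12 values was not tested.

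The libraries differed in ways that touch these values. On the deposited scale each sums to 36.9 M, while the 20 most abundant rows took 29.0% to 43.1% of the total in HFD and 27.8% to 85.7% in control, the highest being control ND15.17.18. The steps put the depth at about 31.4 to 46.0 M reads in HFD and 16.4 to 63.2 M in control. In control ND15.17.18 the scaling factor was 0.176, and Acot1 there rested on 27.5 steps and Acot2 on 37.9, against 502 and 439 in HFD 22. Without that library the Acot1 difference was 1.83 and that of Acot2 1.07. Column headers of HFD 23 and HFD 27 have another form than the other 6, and without both libraries the differences were 1.99 for Acot1 and 1.30 for Acot2.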

How the data were processed

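RNA of sorted gastric epithelial cells was sequenced in 8 libraries, freed of ribosomal RNA and prepared with an Ion Total RNA-Seq kit, per the labels' protocols. Each deposited table holds 1 log2 value per row, scaled by the authors to a common total (antilogs agree within 0.0039%) and floored at 0. The submitters' processing notes name mm10 and bedtools 2.17.0 without a role. No aligner, strand setting or normalization is given in the sources used here. Rows were matched by NCBI Gene ID to RefSeq (GRCm38.p6); transcripts and strands are GENCODE M21.

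A value of 0 was taken as 0. Libraries were divided by median ratios over 11115 rows above 30 in all libraries. Rows reaching 1 in 4 or more libraries (27401) entered a limma fit (version 3.58.1, with trend and robust options, R 4.3.3) of log2(value + 1), with group as the only term and Benjamini-Hochberg adjustment (threshold 0.05). Such fold changes understate those of low genes. Values below 300 steps were whole multiples within 0.01 in 34.1% to 45.2% of cases, so whole reads were not recovered and no count model or counting interval is given.

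The members and lists were chosen with earlier results of these data known. The text names every member; from each list the called genes and then those with the smallest p among rows with mean level of at least 5, up to 4; detected genes of the list of other thioesterases; the 5 closest profiles to Acot1; Atp4a, Pgc, Muc5ac and Ptprc; and up to 3 genes, by level, of the marker lists with the smallest p. 1 gene that this rule names was taken out of its list and is not reported here. Replicates are libraries whose origin in separate mice the labels do not state, so p-values measure the spread between libraries. No replicate number is shared by the groups. Pairwise Spearman correlations between libraries ran from 0.845 to 0.980, and no 2 tables were the same.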

Additional observations from a re-analysis of the deposited data

Results flagged for a closer look

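For 42 genes (members, other thioesterases, other named pathway genes and the closest profiles), each of the 2 groups of 4 libraries was searched for a library far from the others by Dixon's ratio of gap to range. Of these 84 groups 3 passed the critical value; chance gives about 1 in 20. Baat, the enzyme that joins bile acids to glycine or taurine, was highest in HFD 23, with a ratio of 0.96 and a scaled level of 10.79 against 7.05 to 7.20 in the other HFD libraries. Acot12 was also highest in HFD 23. Acbd3, a Golgi protein with an acyl-CoA binding domain, was lowest in HFD 26 with a ratio of 0.948, and Coasy was highest among controls in control 19 with a ratio of 0.926.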

How the results depend on the processing

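Besides the main analysis, 17 alternatives were tried for the members, 2 of them chosen after seeing the data (without HFD 23 and 27, and without control ND15.17.18 on the deposited scale). Acot1 kept a positive difference in all 17, from 1.83 to 2.80, and Acot2 from 1.07 to 2.05; the highest of each was on the deposited scale. Acot4, Acot8, Acot9, Acot12 and Acot13 were also positive in all 17. Acot11 kept its negative sign in 15, Acot7 its positive sign in 12 of 17 and Acot3 in 14 of 16. The stricter filter left Acot3 without a value. The count of called rows was 3 and became 16 on the deposited scale, 21 with limma arrayWeights, 1 without HFD 23 and 27 and 1 without control ND15.17.18 on the deposited scale. With arrayWeights 1 member (Acot1) was called, against 0. Of the listed pathway genes 0 were called under all 17. Leaving out 1 library at a time gave 2 to 5 called rows and 0 to 1 called members; 5 rows and 1 member (Acot1) were called without control 16. For marker lists the count stayed 0 under all 11 alternatives, where a list that separates the groups fully could not pass by itself. The cause was not tested. No paired analysis was possible because the groups share no replicate number. No DESeq2 fit was run, since whole reads were not recovered. Depth limits Acot3 and Acot4, which were under 30 steps in all 8 libraries, and Acot12, under 30 in 6.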

Other observations

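Acot10, an intronless gene on chromosome 15 (20665214 to 20666750), carried more reads than Acot9, whose coding sequence is 97.2% identical to it over 1317 bases. Acot9 minus Acot10 on the deposited log2 scale was -1.44, -1.41, -1.42 and -1.73 in HFD 22, 23, 26 and 27, and -1.83, -2.20, -1.14 and -1.20 in control ND15.17.18, 16, 19 and 20. The order was the same in all 8 libraries, although the Acot10 transcript is the shorter of the pair, at 1537 against 1752 bases. Of the 50-base stretches of Acot10, 23.1% occur in Acot9 and 25.3% in Gm49685. Which gene the reads came from was not tested.

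The nonmember Them5, a thioesterase related to Them4, averaged 5.28 ± 0.75 under HFD and 3.39 ± 2.29 under control (SD, n = 4 each) and was listed at 0 in control ND15.17.18. Acot6 ran from 5.16 to 5.82 in HFD and reached 5.43 in control 16, so its groups overlapped.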
